A study of Mus musculus with 3 samples.

Results

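The 7 genes described here encode the 3 chains of complement C1q (C1qa, C1qb, C1qc), the receptor kinases Mertk and Axl, the scavenger receptor stabilin-1 (Stab1) and the Fc receptor-like scavenger receptor Fcrls. They were picked by name from 16593 genes named on the array, with earlier results of these data known, and found through the platform annotation, which gave 1 probe to each. Of the 7, 6 were above background on at least 1 array, among 8055 such genes in all, and C1qa was above background on none.

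C1q opens the classical complement pathway and also coats dying cells, so that phagocytes take them up without inflammation. Each C1q molecule is built from A, B and C chains, which macrophages and immature dendritic cells make and secrete. Mertk and Axl belong with Tyro3 to the TAM receptor family. They bind phosphatidylserine on apoptotic cells through the bridging proteins Gas6 and protein S, and their signalling dampens Toll-like receptor and cytokine responses. Stabilin-1 binds phosphatidylserine directly and also clears modified lipoproteins and matrix fragments. Fcrls is known as a surface marker of mouse microglia and some tissue macrophages.

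Expression was measured with 1 Illumina bead array for each of 3 cultures of dendritic cells grown from the bone marrow of DBA mice aged 6 weeks. The marrow of all 3 was cultured over 8 days in GM-CSF (20 ng/ml) plus interleukin-4 (2 ng/ml), factors that drive marrow precursors toward dendritic cells. The mDC culture, called fully mature in the labels, then received 1 µg/ml of lipopolysaccharide with 50 µg/ml of type II collagen, for 24 h. The tDC culture, called semi-mature or tolerogenic, received 10 ng/ml of TNF-alpha with the same amount of collagen, for 4 h. The imDC culture was the immature one, with no stimulus and no hour of harvest named. Agent and duration differ at once between mDC and tDC and cannot be told apart. Against imDC, the agent, the collagen and the time with them differ at once, and cannot be told apart either. No sorting step is described in the labels, and a smaller share of expressing cells cannot be told apart from less RNA per cell. Each group has a single array, so no difference here carries a test, a p-value or a standard error, and that number limits precision throughout.

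Values are the deposited signals, in linear intensity units, and levels normalized here on a log2 scale. A probe counted as above background at a detection p under 0.01, a p that ranks the probe's signal among negative control beads of its own array. Genes are called higher or lower from 2-fold on, a log2 difference of 1 in size. Where a gene was above background on only 1 array of a pair, its difference is a bound, written as "at least", and where it was above background on neither it has no fold. The median signal was 125 units in mDC, 125 in tDC and 132 in imDC. The lowest signal above background lay between 155 and 160 units on the 3 arrays. The one available measure of error was the gap between the log2 differences of 2 probes of the same gene. Its median was 0.15 for mDC minus imDC over 1814 genes and 0.13 for tDC minus imDC over 1846 genes. The 95th percentile of that gap was 0.57 for mDC minus imDC and 0.44 for tDC minus imDC. It leaves out all variation between cultures.

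Of 12 dendritic cell markers, 8 were above background in mDC, 8 in tDC and 9 in imDC, with Itgax (CD11c), Zbtb46, H2-Ab1 and Cd74 on every array. Of the 9 measured, 3 were lower at 2-fold in mDC than in imDC and 0 higher, beside 5.96% and 6.16% of all genes. In tDC 2 were lower and 0 higher, beside 2.02% and 2.88%. Itgax was 3.88-fold lower in mDC and 2.29-fold lower in tDC. Cd209a was at least 2.25-fold lower in mDC and at least 2.32-fold in tDC. Both bounds went under 2-fold in 3 of the 7 processing alternatives. H2-Ab1, an MHC class II chain, was 2.06-fold lower in mDC (1.94-fold with median scaling). Ccr7 differed by 0.72 in mDC and 0.47 in tDC, and Zbtb46 by -0.41 and 0.43. Flt3, Clec9a and Xcr1, the last 2 being markers of the cross-presenting subset, were above background on no array. Of the 9 macrophage and monocyte markers with a probe, 7 were above background on every array, and Cd163 and Ccr2 on none.

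In mDC, 5 of the 7 genes were lower than in imDC at 2-fold, 1 was higher and 1 had no fold. Fcrls, C1qb, Mertk, Axl and C1qc were the lower ones and Stab1 the higher one. The median log2 difference of the 6 genes with a value was -2.23, beside -0.01 for all 7858 genes with a value. Of all 7973 genes measured in that pair, 5.96% were lower and 6.16% were higher at 2-fold, 12.1% either way. In tDC, 4 of the 7 were lower than in imDC (Fcrls, C1qc, C1qb and Axl), Stab1 was higher and Mertk was under 2-fold, against 2.02% of all genes lower and 2.88% higher, 4.9% either way. In mDC set against tDC, 3 of the 7 were lower (Fcrls, Mertk and C1qb), and none was higher, against 2.8% of all genes lower and 3.44% higher, 6.23% either way. The imDC array is shared by the first 2 comparisons. The genes were chosen with these differences known, so the counts describe them and nothing more is read from them.

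**Figure D1:**
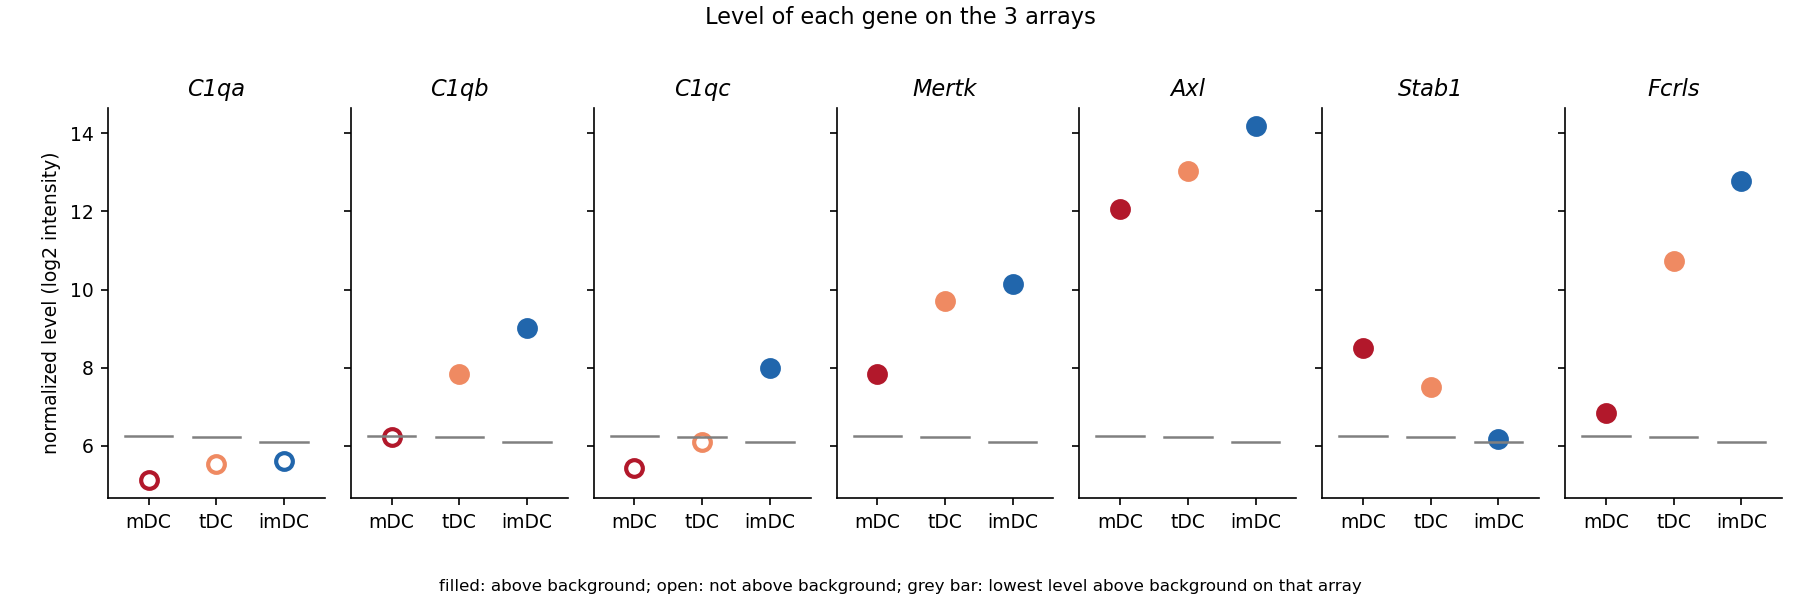
Normalized level (log2 intensity) of each of the 7 genes on the mDC, tDC and imDC arrays, 1 point per array; filled points are above background, open points are not, and grey bars mark the lowest level above background on that array. Fcrls lies at 6.83 in mDC, 10.72 in tDC and 12.77 in imDC, Stab1 has the opposite order, and every point of C1qa is open.

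The C1q chains were at or near background in mDC and clearly measured in imDC for 2 of the 3 chains. C1qb, which encodes the B chain, gave 153 units in mDC, 306 in tDC and 641 in imDC. Its mDC signal just missed the detection limit, at a detection p of 0.0113. C1qb was at least 6.74-fold lower in mDC than in imDC, 2.28-fold lower in tDC than in imDC, and at least 2.96-fold lower in mDC than in tDC. Without background correction the mDC bound against imDC was 3.74-fold, and both the tDC difference from imDC and the mDC bound against tDC were 1.93-fold, under 2-fold, as they were in the authors' values (1.96-fold and 1.93-fold). C1qc, which encodes the C chain, gave 122 units in mDC, 149 in tDC and 363 in imDC, and only the imDC signal was above background. It was at least 3.31-fold lower in mDC and at least 3.42-fold lower in tDC than in imDC. These bounds rest on each array's own detection limit and so give no order of mDC and tDC. Without background correction they were 2.10-fold in mDC and 2.13-fold in tDC. The tDC signal of C1qc was close to the limit, with a detection p of 0.0138.

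The A chain gave no measurable difference. C1qa read 110 units in mDC, 126 in tDC and 137 in imDC, with detection p-values of 0.178, 0.0589 and 0.0476. Its order over the arrays was that of C1qb and C1qc, but all 3 values lay below the detection limit. Rhoa, a GTPase found in nearly all cells, was also below background on all 3 arrays.

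The 3 C1q genes lie side by side on mouse chromosome 4, in the order C1qb, C1qc, C1qa, in the RefSeq annotation of GRCm38.p6. The next listed genes after C1qa, Epha8 and Zbtb40, were above background on no array. The promoters of C1qb and C1qc are printed because these neighbours were lower together, that of Fcrls because it had the largest measured difference, and that of Stab1 because it went the other way. Each is 300 bases from RefSeq on GRCm38.p6, 250 before the annotated start and 50 after it, read 5′ to 3′ on the gene's strand, which is the minus strand for all 4. Capitals mark every match, on either strand, to TGCTGA (a core of the MAF recognition element), GAGGAA (a core for PU.1, the myeloid factor encoded by Spi1) or AGGTCA (a repeat unit bound by nuclear receptors). Both matches in C1qc are on the opposite strand and read TTCCTC and TGACCT as printed. The C1qb window is chr4:136886151-136886450, that of C1qc is chr4:136892865-136893164, that of Fcrls is chr3:87263475-87263774 and that of Stab1 is chr14:31168592-31168891.
C1qb: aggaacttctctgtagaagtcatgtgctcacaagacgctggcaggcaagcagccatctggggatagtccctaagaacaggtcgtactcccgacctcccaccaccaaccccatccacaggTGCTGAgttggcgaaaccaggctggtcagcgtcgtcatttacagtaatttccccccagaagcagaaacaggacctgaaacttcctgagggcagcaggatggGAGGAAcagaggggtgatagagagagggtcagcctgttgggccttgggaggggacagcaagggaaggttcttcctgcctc
C1qc: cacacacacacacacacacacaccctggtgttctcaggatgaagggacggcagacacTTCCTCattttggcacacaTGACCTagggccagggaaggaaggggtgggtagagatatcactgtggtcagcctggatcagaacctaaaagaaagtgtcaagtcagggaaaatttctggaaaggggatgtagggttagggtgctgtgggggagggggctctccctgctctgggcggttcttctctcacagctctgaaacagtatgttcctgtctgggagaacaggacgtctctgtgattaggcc
Fcrls: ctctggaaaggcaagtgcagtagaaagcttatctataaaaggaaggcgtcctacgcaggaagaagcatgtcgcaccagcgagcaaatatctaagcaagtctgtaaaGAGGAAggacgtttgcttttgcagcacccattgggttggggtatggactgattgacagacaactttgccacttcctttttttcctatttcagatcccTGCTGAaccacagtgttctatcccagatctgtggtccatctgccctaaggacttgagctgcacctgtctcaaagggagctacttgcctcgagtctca
Stab1: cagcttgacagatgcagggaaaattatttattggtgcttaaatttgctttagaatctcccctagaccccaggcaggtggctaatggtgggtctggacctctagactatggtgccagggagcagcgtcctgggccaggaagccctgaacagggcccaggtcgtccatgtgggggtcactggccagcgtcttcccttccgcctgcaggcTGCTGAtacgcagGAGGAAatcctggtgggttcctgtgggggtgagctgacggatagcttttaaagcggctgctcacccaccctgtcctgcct

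Promoters were listed for 6 of the 7 genes (all but C1qa). GAGGAA occurred in 5 of these 6 windows, those of C1qb, C1qc, Axl, Stab1 and Fcrls, and in 28.3% of 32851 mouse promoter windows of that length. TGCTGA occurred in 3 of the 6 (C1qb, Stab1 and Fcrls) and in 19.5% of all windows. In Stab1, the gene with higher levels, the TGCTGA match at positions -43 to -38 stood close to the GAGGAA match at -30 to -25, counted with the annotated start at 0. C1qb held GAGGAA at the same positions, -30 to -25, and TGCTGA at -131 to -126. AGGTCA was found in the window of C1qc alone, and in 16.3% of all windows. None of the 6 held TGACTCA, an AP-1 site found in 5.2% of all windows, or CACGTG, an E-box found in 7.15%. Nor did any hold an interferon regulatory factor element (GAAA repeated after any 2 bases, 3.44% of all windows), a STAT6-type site (TTC and GAA around any 4 bases, 6.95%) or an NF-kB site (GGG and TTTCC around any 2 bases, 1.63%). No matches overlapped in the 6 windows, and the Mertk window held none.

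Among 13 measured genes for transcription factors linked to clearance genes, Klf4 and Pparg were lower in mDC, and Irf8 was higher. Klf4 was 6.80-fold lower in mDC and 2.61-fold lower in tDC than in imDC. Pparg, a nuclear receptor of lipid handling that interleukin-4 induces, was 2.69-fold lower in mDC, whereas its log2 difference in tDC was -0.07. Irf8, a factor of dendritic cell and monocyte development, was 2.18-fold higher in mDC and differed by 0.39 in tDC. The list thus had 1 higher and 2 lower genes in mDC, beside 6.16% and 5.96% of all genes. In tDC it had 0 higher and 1 lower of 12, beside 2.88% and 2.02%. Spi1 differed by 0.05 in mDC and 0.48 in tDC, and Nr1h3, which encodes the oxysterol receptor LXR-alpha, by 0.32 in mDC and 0.08 in tDC. The differences of Stat6, Rxra, Rxrb, Tfec, Klf2 and Cebpb lay between -0.16 and 0.90 over both comparisons with imDC. Cebpa was above background in imDC alone, at least 1.60-fold lower in mDC and at least 1.65-fold in tDC, and Nr3c1, the glucocorticoid receptor, was above background in mDC alone, at least 0.47 higher on the log2 scale than in imDC. Maf and Ppard were above background on no array, and Nr1h2 had no probe under that name.

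Complement partners of C1q did not all go the way of the chains. Cd93, once described as a C1q receptor and found on myeloid and endothelial cells, gave 426 units in mDC, 951 in tDC and 1996 in imDC. It was 4.90-fold lower in mDC and 2.09-fold lower in tDC. Cd55, which breaks down complement convertases on the cell's own surface, gave 388 units in mDC, 255 in tDC and 173 in imDC, the reverse order. It was 4.07-fold higher in mDC and 2.18-fold higher in tDC. The tDC value of Cd55 went under 2-fold in 3 of the 7 processing alternatives (at lowest 1.58-fold), and that of Cd93 in 1 (1.99-fold). C2, a protease of the classical pathway, was above background in mDC alone, at least 2.29-fold higher than in imDC, a bound that went under 2-fold in 3 alternatives (at lowest 1.56-fold). C1ra, C1s1 and C4a, which encode further proteases and a component of that pathway, and Serping1, its inhibitor, were above background on no array. C4b, Calr, C1qbp, Lrp1, Cr1l and Cd59a differed by between -0.67 and 0.46 on the log2 scale in both comparisons with imDC. In all, 2 of 9 measured partners were higher and 1 was lower in mDC, beside 6.16% and 5.96% of all genes. In tDC 1 of 8 was higher and 1 lower, beside 2.88% and 2.02%. The mDC median of -0.26 stood beside -0.01 for all genes. Of 17 genes for C1q and TNF related proteins with a probe, 4 were above background on any array. None of these differed from imDC by 2-fold in mDC or tDC, where 12.1% and 4.9% of all genes did either way.

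Both TAM receptors were lower in mDC than in imDC, Mertk 4.98-fold and Axl 4.42-fold, but their values in tDC were unlike. Mertk gave 293 units in mDC, 904 in tDC and 1276 in imDC. In tDC it was 1.36-fold lower than in imDC, a log2 difference of -0.44, at the 95th percentile of the gap between probes of a gene. In mDC it was 3.66-fold lower than in tDC. Without background correction Mertk was 3.91-fold lower in mDC than in imDC and 2.94-fold lower than in tDC. The tDC level of Mertk was therefore near that of imDC, and most of its difference lay between tDC and mDC. Axl gave 4225 units in mDC, 8464 in tDC and 18632 in imDC. It was 2.25-fold lower in tDC than in imDC, and 1.96-fold lower in mDC than in tDC, just short of 2-fold. On the log2 scale the tDC difference made up 54.6% of the mDC difference for Axl and 19.2% for Mertk. The imDC array enters both of these differences.

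Both ligands of the TAM receptors were lower in mDC, and Pros1 also in tDC. Pros1, which encodes protein S, gave 380 units in mDC, 1080 in tDC and 3620 in imDC, and was 11.0-fold lower in mDC and 3.50-fold lower in tDC. Gas6, the ligand that Axl requires, gave 172 units in mDC, 246 in tDC and 409 in imDC, and was 3.08-fold lower in mDC, with a tDC value 1.79-fold below that of imDC. Both ligands thus had their highest signal in imDC and their lowest in mDC, the order seen for both receptors. The remaining TAM receptor, Tyro3, was above background in imDC alone, with bounds of 1.05-fold in mDC and 1.09-fold in tDC, which leave its difference unmeasured. Adam17, a protease that sheds Mertk from the cell surface, differed by 0.23 in mDC and 0.37 in tDC, and Adam10, which can shed Axl, was above background on no array. Of 6 measured genes of this list, 4 were lower in mDC, the 2 members included, and 0 were higher. Of all genes, 5.96% were lower and 6.16% higher there. In tDC 2 of the 6 were lower, beside 2.02% of all genes.

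**Figure D2:**
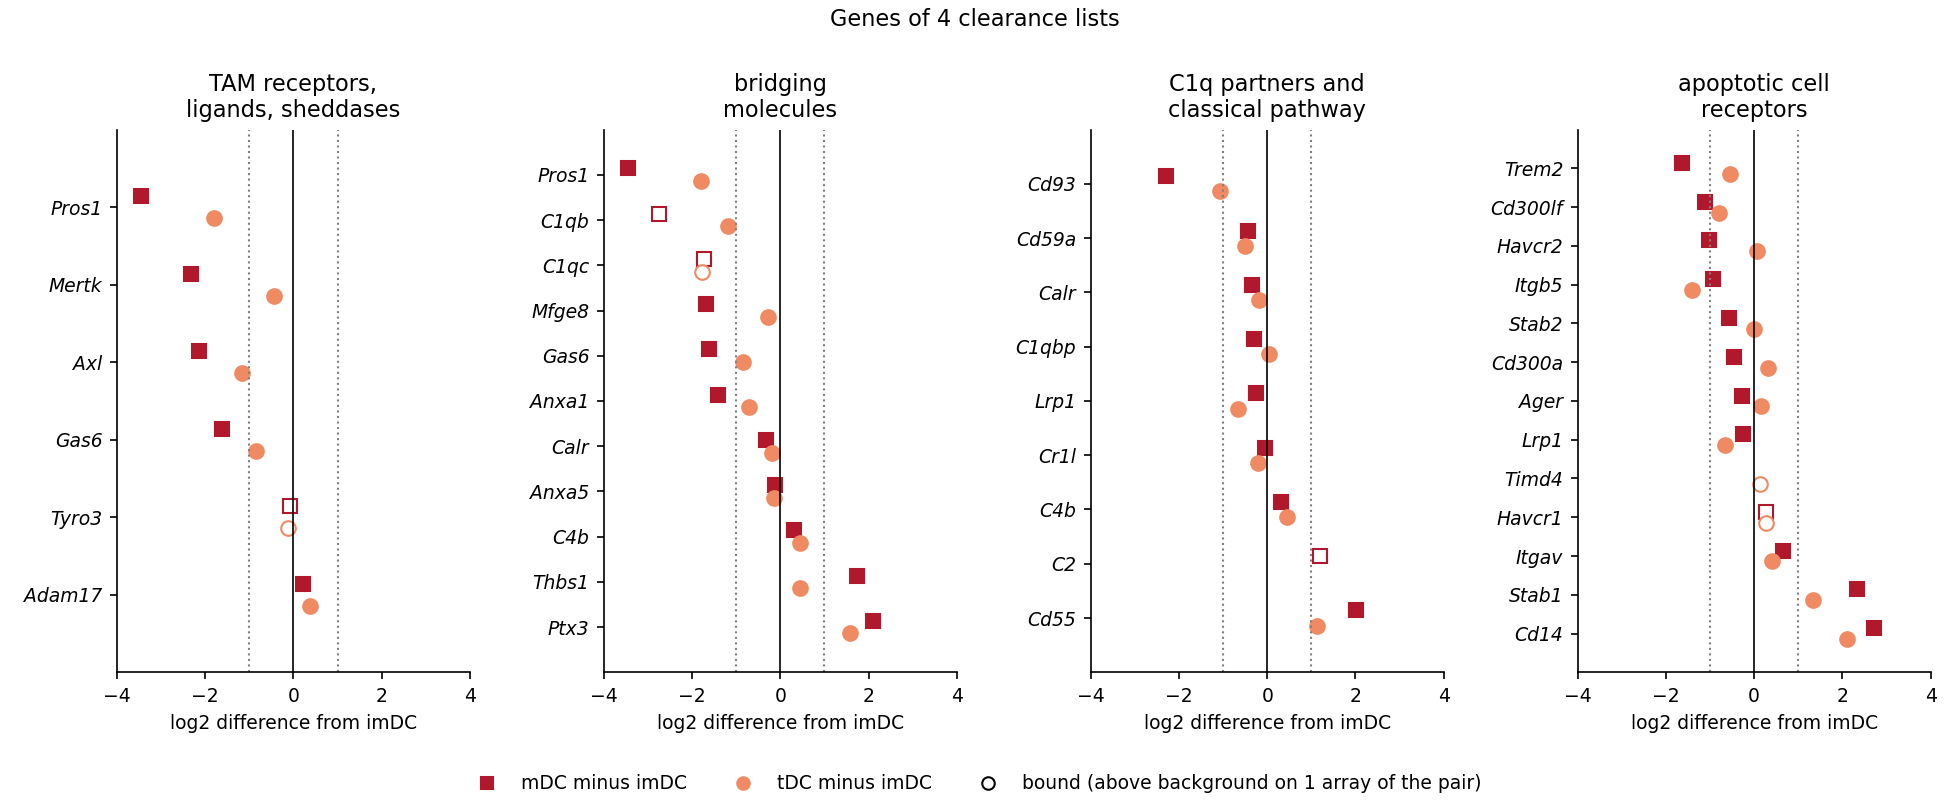
Log2 difference from imDC of each gene above background in 4 clearance lists, with squares for mDC, circles for tDC, open symbols for bounds and dotted lines at 2-fold. Pros1 lies furthest left, at -3.46 in mDC and -1.81 in tDC, while Stab1, Cd14, Ptx3 and Cd55 lie to the right of the 2-fold line for both.

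Other bridging molecules, which link dying cells to phagocytes, were lower or higher by gene. Mfge8, which bridges phosphatidylserine to integrins, was 3.24-fold lower in mDC, with a log2 difference of -0.28 in tDC. Its other probe gave 4.65-fold in mDC and 1.48-fold in tDC, both lower than imDC. Anxa1, a pro-resolving protein exposed on dying cells, was 2.65-fold lower in mDC, with a tDC value 1.63-fold below that of imDC. Ptx3, a pentraxin that binds C1q, was 4.31-fold higher in mDC and 3.01-fold higher in tDC. Thbs1, which encodes thrombospondin-1, was 3.35-fold higher in mDC and differed by 0.45 in tDC. Anxa5, Calr and C4b stayed under 2-fold in both. Of 11 measured bridging genes, 6 were lower and 2 higher in mDC (median -1.40), beside 5.96% and 6.16% of all genes. In tDC 3 were lower and 1 higher (median -0.28), beside 2.02% and 2.88%. The C1q chains account for 2 of the lower ones in each. Pros1 and Gas6 are counted in this list as well as in the TAM list.

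Stab1 was the exception among the members. It gave 414 units in mDC, 259 in tDC and 163 in imDC, the imDC signal being barely above background at a detection p of 0.00627. It was 5.03-fold higher in mDC and 2.52-fold higher in tDC than in imDC. The step between tDC and mDC was 1.99-fold, just short of 2-fold. Without background correction Stab1 was 2.85-fold higher in mDC and 1.70-fold above imDC in tDC, no longer 2-fold there. Its paralogue Stab2, which also binds phosphatidylserine, differed by -0.58 in mDC and -0.01 in tDC.

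Further receptors for apoptotic cells went both ways. Trem2, a lipid-sensing receptor of macrophages, was 3.10-fold lower in mDC, Cd300lf, a phosphatidylserine receptor, 2.17-fold lower, and Havcr2, which encodes TIM-3, 2.03-fold lower. Havcr2 went under 2-fold in 3 alternatives, and its second probe gave 1.97-fold. Itgb5, a subunit of the integrin that binds Mfge8, was 2.67-fold lower in tDC and differed by -0.92 in mDC. Cd14, which binds both lipopolysaccharide and apoptotic cells, was 6.56-fold higher in mDC and 4.32-fold higher in tDC. With Stab1, 2 of 12 measured receptors were higher and 3 were lower in mDC, beside 6.16% and 5.96% of all genes. In tDC 2 of 13 were higher and 1 lower, beside 2.88% and 2.02%. Timd4, which encodes the phosphatidylserine receptor TIM-4, was above background in tDC alone, and Adgrb1, Cd300lb, Itgb3 and Cd36 on no array. Among scavenger receptors, Marco, which binds bacteria, was 7.30-fold higher in mDC, Cxcl16 2.31-fold and Scarf1, another receptor that binds C1q, 2.08-fold higher. Scarf1 went under 2-fold in 4 alternatives. Mrc1, the mannose receptor, was 47.1-fold lower in mDC and 1.99-fold below imDC in tDC. In all, 4 of 8 measured scavenger receptor genes were higher in mDC, Stab1 included, and 1 was lower. The shares of all genes were 6.16% and 5.96%. Stab1 was the 1 at 2-fold in tDC, where 4.9% of all genes differed either way.

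Fcrls had the largest measured difference of the 7 genes in each comparison, the bounds of C1qb and C1qc aside. It gave 188 units in mDC, 1753 in tDC and 7077 in imDC, and all 3 signals were above background. It was 61.6-fold lower in mDC and 4.15-fold lower in tDC than in imDC, and 14.9-fold lower in mDC than in tDC. Of 7858 genes with a value, 1 had a more negative log2 difference than Fcrls in mDC minus imDC, and 7 of 7795 did in tDC minus imDC. The tDC difference made up 34.5% of the mDC difference on the log2 scale. Its mDC signal lay close to the detection limit, and without background correction Fcrls was 35.9-fold lower in mDC than in imDC and 8.98-fold lower than in tDC.

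The Fc gamma receptor genes and other Fc receptor-like genes were under 2-fold from imDC by the probe that stood for each. Fcgr2b, Fcgr3 and Fcgr4 had log2 differences of -0.71, -0.53 and -0.85 in mDC, and 0.01, -0.46 and -0.40 in tDC. Fcgr1 differed by 0.06 in mDC and -0.90 in tDC. Fcrla, an intracellular relative expressed in B cells, differed by -0.88 in mDC, where its 2 other probes gave 2.01-fold and 1.66-fold, and by 0.02 in tDC. Of the 6 genes measured in this list, Fcrls was the 1 lower at 2-fold in mDC and in tDC. The shares of all genes lower were 5.96% in mDC and 2.02% in tDC. The gene next to Fcrls on chromosome 3, Cd5l, a macrophage-secreted inhibitor of apoptosis, and the gene after it, Fcrl1, were above background on no array.

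**Figure D3:**
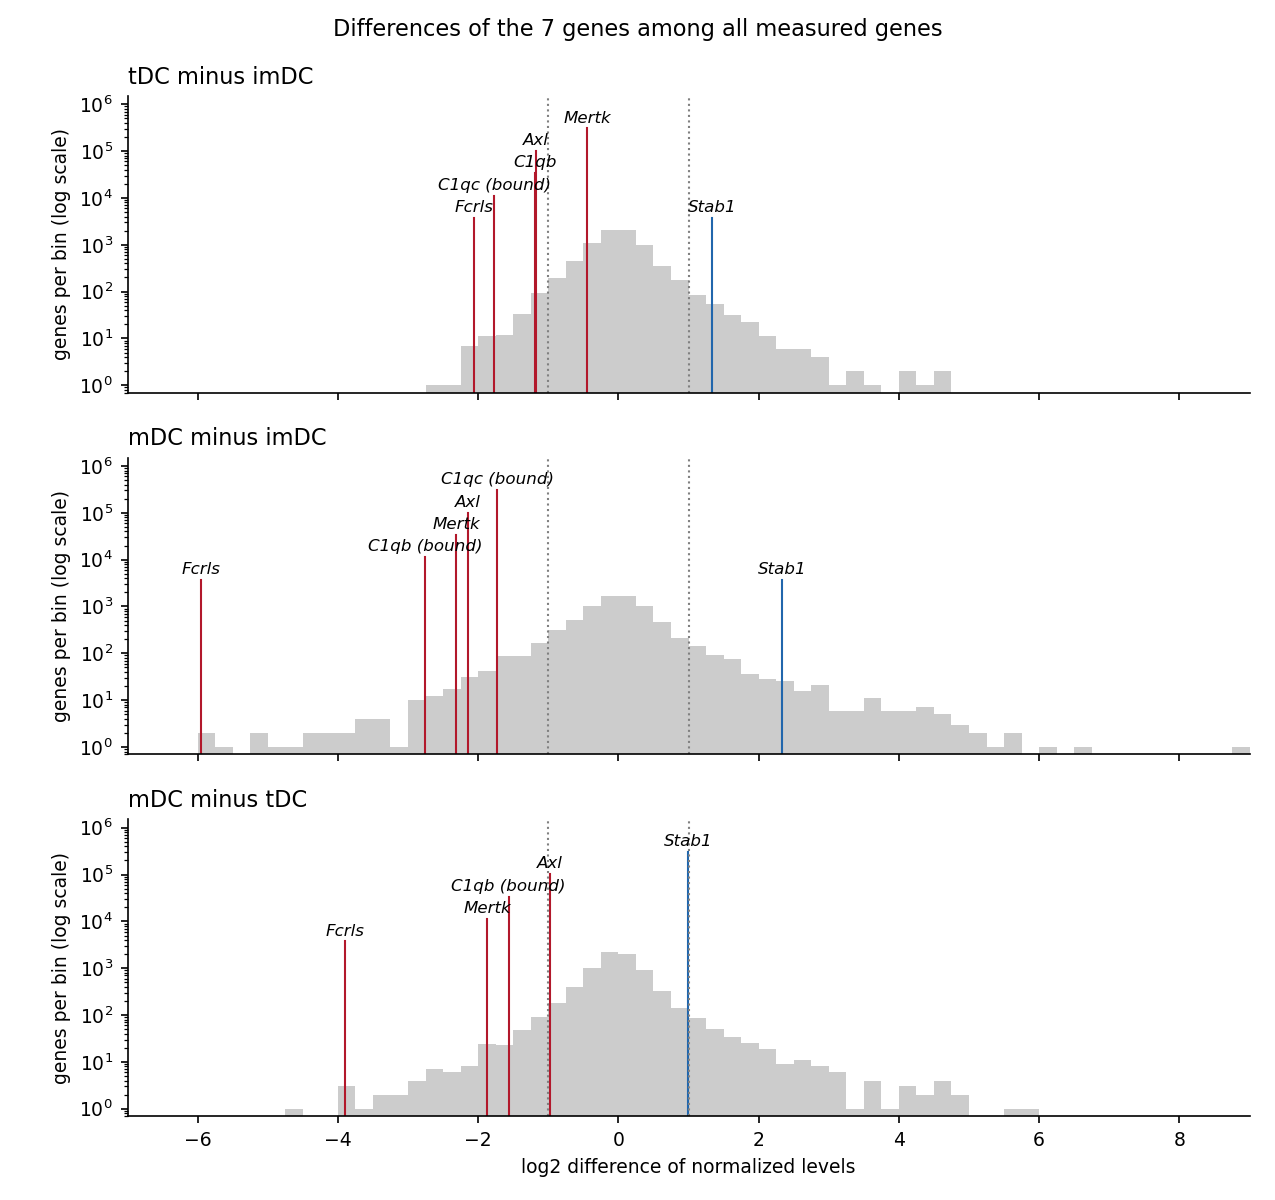
Log2 differences of all genes with a value (grey, number of genes per bin of 0.25 on a log scale) for tDC minus imDC, mDC minus imDC and mDC minus tDC, with lines at the members that have a value and dotted lines at 2-fold. Fcrls is the leftmost line in each panel, at -2.05, -5.95 and -3.89, and Stab1 alone lies to the right of 0.

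Of 14 measured genes of engulfment signalling inside the cell, 2 were lower (14.3%) and 0 higher in mDC, with a list median of 0.08, beside 5.96% lower and a median of -0.01 over all genes. These were Elmo2 (3.09-fold) and Dock1 (2.00-fold), partners in a complex that activates Rac, and both were also 2-fold lower in tDC (2.00-fold and 2.02-fold), where 2.02% of all genes were lower. Dock1 went under 2-fold in 3 alternatives for each comparison, and Elmo2 in 3 for tDC. Elmo1, the form found in blood cells, differed by -0.22 in mDC and 0.17 in tDC, and Rac1, Rac2, Cdc42 and Rhog by between -0.49 and 0.87. Of 18 genes of LC3-associated phagocytosis and phagosome maturation, 1 was lower in mDC, the protease Ctsl (2.33-fold, and at lowest 1.86-fold over the alternatives), and 0 of 17 in tDC. That list's share of 5.56% in mDC was near the 5.96% of all genes, and in tDC 2.02% of all genes were lower. Of 10 measured genes for signals that attract or repel phagocytes, 2 were higher and 0 lower in mDC, beside 6.16% and 5.96% of all genes. The higher ones were the channel Panx1 (2.45-fold) and the scramblase-family gene Plscr1 (2.45-fold). Plscr1 was also 2.36-fold higher in tDC, where the nucleotide receptor P2ry6 was 2.02-fold lower (1.87-fold with median scaling). In tDC 1 of 9 was thus higher and 1 lower, beside 2.88% and 2.02%. Cd47, the main do-not-eat-me signal, and its receptor Sirpa differed by 0.15 and 0.57 in mDC, and by 0.02 and -0.04 in tDC.

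Of 13 measured genes of tissue macrophages, 4 were lower in mDC than in imDC and 4 higher, beside 5.96% and 6.16% of all genes. Beside Mrc1 and Trem2, the lower ones were F13a1, the A chain of coagulation factor XIII (at least 8.65-fold), and the selenium carrier Selenop (2.88-fold). The higher ones were Ms4a7 (8.17-fold), Adgre1, which encodes F4/80 (7.99-fold), the platelet chemokine Pf4 (4.69-fold) and Siglec1, a sialic acid receptor (at least 3.31-fold). In tDC, Adgre1 (2.15-fold) and Ms4a7 (2.01-fold) were higher and F13a1 was 3.96-fold lower. That made 2 of 12 measured genes higher and 1 lower in tDC, beside 2.88% and 2.02% of all genes. The 2 other probes of Adgre1 gave 1.22-fold and 2.32-fold there, the second probe of Ms4a7 gave 1.32-fold, and the tDC value of Ms4a7 went under 2-fold in 5 alternatives (at lowest 1.63-fold). Folr2, Lyve1, Vsig4, Cx3cr1, Gpr34 and P2ry12 were above background on no array.

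Summed marker levels of other cell types were not equal on the arrays. Over the 7 macrophage and monocyte markers above background, the summed level on the linear scale was 80959 in mDC, 71509 in tDC and 58331 in imDC. Without Cd14 the sum was 46388 in mDC, 48759 in tDC and 53063 in imDC, the reverse order. In mDC 3 of the 7 were higher than in imDC at 2-fold and 1 was lower, beside 6.16% and 5.96% of all genes. The higher ones, Cd14, Adgre1 and Ms4a7, each had the order of the full sum. The lower one, Mrc1, and Lyz2 (1.43-fold below imDC in mDC) ran against it. For neutrophil markers, 11 of 12, the sums were 144483 in mDC, 123945 in tDC and 66154 in imDC. Without Lcn2, which encodes lipocalin-2, they were 79916 in mDC, 97935 in tDC and 61079 in imDC. In mDC 5 of the 11 were higher than in imDC at 2-fold, beside 6.16% of all genes. Lcn2 (12.7-fold) and Camp (5.50-fold) had the largest of these differences. The 1 lower at 2-fold was Cxcr2 (4.41-fold), beside 5.96% of all genes. For mast cell and basophil markers, 8 of 9, they were 40160 in mDC, 17749 in tDC and 7850 in imDC, and without Hdc, the histamine-forming enzyme, 13771 in mDC, 10506 in tDC and 6630 in imDC. The dendritic cell sum was 57523 in mDC, 90894 in tDC and 88205 in imDC, over 9 of 12 genes, and without Cd74 25241 in mDC, 40991 in tDC and 40739 in imDC. These sums without the gene of widest range were added after the data were seen. T and NK cell markers had 4 of 10 genes above background on any array, with sums of 494 in mDC, 416 in tDC and 235 in imDC, and Cd4, Cd8a and Ncr1 on no array. B and plasma cell markers had 2 of 6 (Cd79a and Cd79b), with 723 in mDC, 378 in tDC and 165 in imDC, and Ms4a1 and Pax5 on no array. Erythroid and platelet markers had 3 of 7, with 1354 in mDC, 512 in tDC and 353 in imDC. Of 6 stromal markers, Dcn alone was above background, in mDC alone. The part of cell composition in the values of the 7 genes was not tested.

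For each member, the genes with the nearest pair of differences (tDC minus imDC and mDC minus imDC) were looked up, as a description over 3 arrays. For Fcrls the nearest of 7095 genes whose probe was above background on all arrays was Fbp1, an enzyme of gluconeogenesis, at -2.09 and -5.98 against -2.05 and -5.95 for Fcrls. The next were Mrc1 and Ccnd1, at distances of 1.13 and 1.19 on the log2 scale. For Axl they were Myo7a, Olfm1 and H2-DMa, which loads peptide on MHC class II, at distances of 0.08 to 0.14. For Mertk they were the chemokine Ccl6, Rufy4 and Rhobtb3, at 0.15 to 0.24. For Stab1 they were Cd79b, a B cell receptor subunit, Camp, a granule peptide of neutrophils, and Pla2g7, which degrades platelet-activating factor, at 0.10 to 0.16. For C1qb, among 190 genes above background in tDC and imDC only, they were Treml1, Rab3il1 and Cd209c. For C1qc, among 135 genes above background in imDC only, they were Hcar1, Chd5 and Smagp, a likeness between bounds.

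The C1q genes neighbour each other, and their differences are given above. The other genes beside the members on the chromosome stayed under 2-fold from imDC where they were measured, Cyp2s1 in mDC excepted. Most genes did so, since 12.1% of all genes in mDC and 4.9% in tDC differed by 2-fold either way. Beside Axl, Hnrnpul1 and Ccdc97 differed by 0.24 and 0.57 in mDC and by 0.13 and 0.07 in tDC. On its other side Cyp2s1, a cytochrome P450, was above background in tDC and imDC, with a log2 difference of -0.59 in tDC and a bound of -1.59 in mDC. Beside Stab1, Nisch differed by 0.61 in mDC and 0.17 in tDC. Near Fcrls, Cd1d1, which encodes a molecule that presents lipid antigens, differed by 0.87 in mDC and -0.32 in tDC.

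**Figure D4:**
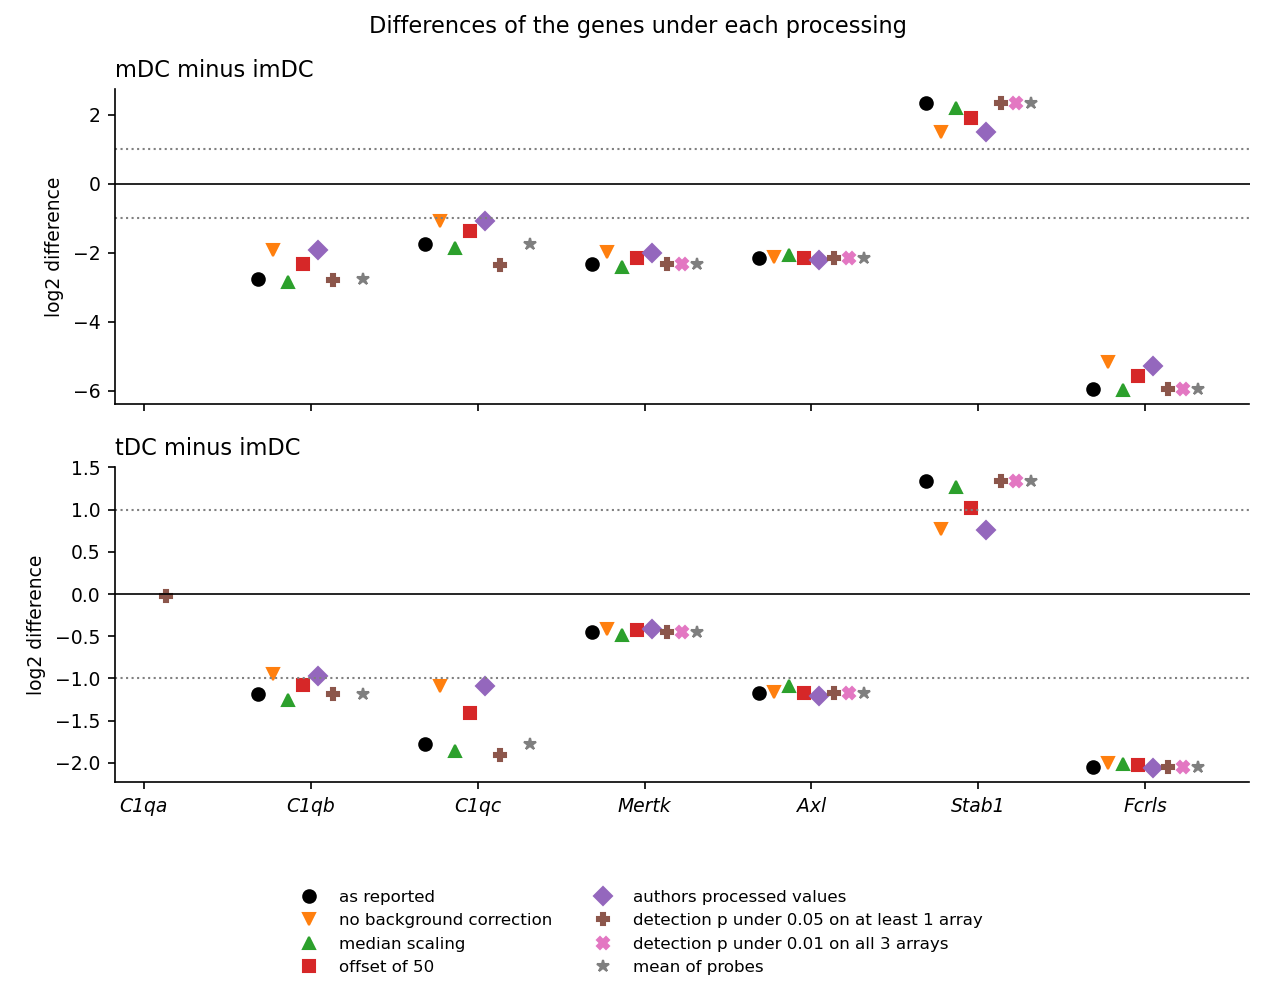
Log2 difference of each gene from imDC under the reported processing (black circles) and 7 alternatives, for mDC above and tDC below, with dotted lines at 2-fold. Axl stays between -2.21 and -2.07 in mDC over the alternatives. C1qb, C1qc and Stab1, whose signals lie near background, move toward 0 without background correction and in the authors' processed values. The mDC values of Mertk and Fcrls do so too.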

How the data were processed

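Per the file headers, the deposited table of unprocessed arrays gave an average signal, a linear intensity, and a detection p-value for each of 25697 probes on each of 3 arrays. The submitters' processing notes list GenomeStudio 2011.1. A second deposited table held the authors' processed values, found to be quantile-normalized log2 intensities with a median of 6.98 in each column. From the signals, neqc in limma 3.58.1 (R 4.3.3) made the levels used here: normexp background correction with parameters from the detection p-values, an offset of 16, quantile normalization and log2. Probes with a detection p under 0.01 on at least 1 array were kept (11556). The annotation named 23978 probes, with several genes for 0 of them, and 23962 were found by Entrez ID in the RefSeq table of GRCm38.p6. The brightest kept probe stood for a gene, which gave 8055 genes. For a bound, the undetected side was given the lowest level above background on that array, or its measured level if higher.

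Groups came from sample titles. The steps were tried on simulated arrays, with changes placed only in genes of moderate imDC signal. C1qa, C1qc, Stab1 and Axl lay outside that range, so the trial does not cover them. The members, the 12 pathway lists, the 8 marker lists and the motifs were chosen with earlier results of these data known. Named genes were the members, the up to 4 largest differences at 2-fold per list and comparison, all TAM, C1q partner and transcription factor genes, and the 3 genes nearest each member by Euclidean distance of both differences from imDC, among genes above background on the same arrays. Others (Rhoa, neighbours and genes named as under 2-fold or below background) were named after their values were seen. Linear sums of marker levels include the offset. Alternatives were no background correction, median scaling, an offset of 50, the authors' values, a detection p under 0.05, detection on all 3 arrays, and the mean of probes.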

Additional observations from a re-analysis of the deposited data

How the results depend on the processing

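Across 7 alternatives, 107 of 116 differences of single members stayed on the same side of 2-fold with the same sign, 6 went under 2-fold, 1 reached it, 2 had a value in 1 alternative alone, and 0 were reversed. Part of that count was fixed in advance. Each member has 1 probe, so the mean of probes repeats its value. The looser detection p leaves unchanged any difference above background on both arrays, and detection on all 3 arrays either leaves it unchanged or drops it. The authors' values also lie close to those without background correction, so these alternatives are not independent. Without background correction and in the authors' processed values, C1qb in tDC (1.93-fold and 1.96-fold lower than imDC), Stab1 in tDC (1.70-fold and 1.69-fold higher than imDC) and C1qb in mDC (at least 1.93-fold lower than tDC in each) went under 2-fold. In the authors' values Axl was 2.01-fold lower in mDC than in tDC. With a detection p under 0.05, C1qa was above background in imDC (at least 1.02-fold lower in tDC) and C1qc in tDC (at least 1.36-fold lower in mDC). With detection required on all 3 arrays C1qb and C1qc dropped out, and the lower members numbered 2 in tDC against imDC and 3 in mDC against imDC. The members' median log2 difference was -1.02 for tDC minus imDC, -1.93 for mDC minus imDC and -0.96 for mDC minus tDC without background correction. In the authors' values it was -1.03 for tDC minus imDC, -1.96 for mDC minus imDC and -1.004 for mDC minus tDC. Detection on all 3 arrays gave -0.81 for tDC minus imDC and -1.42 for mDC minus tDC. For mDC minus tDC an offset of 50 gave -1.24 and a detection p under 0.05 gave -1.29. Of 96 differences of other list and marker genes at 2-fold, 27 went under 2-fold in at least 1 alternative and 0 were reversed. With a detection p under 0.05 C1qc was at least 5.10-fold lower in mDC than in imDC. Without background correction 79 genes were lower and 148 higher in tDC than in imDC, against 159 and 227, and the authors' values gave 85 lower. In mDC against tDC 132 genes were lower without background correction and 136 in the authors' values, against 219. Requiring detection on all 3 arrays lowered the number of genes tested by construction. For the other shifts the cause was not tested. Signal over background limits C1qa, C1qb, C1qc, Stab1 and the mDC values of Mertk and Fcrls. No paired analysis was possible because each group has 1 array.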
